A study of Glycine max with 21 samples.

Results

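Of the soybean HD-Zip I genes, 5 had levels that were higher in roots under salt or dehydration, and they are described here: Glyma01g04890, the homoeologous pair Glyma07g05800 and Glyma16g02390, and the homoeologous pair Glyma01g38390 and Glyma11g06940. Homoeologs are the copies of a gene left by a whole-genome duplication. The members were chosen by their measured levels among 36 listed HD-Zip I genes, out of 62537 gene models, so every comparison of their levels below is a description and carries no p-value. The gene identifiers place them on chromosomes 1, 7, 16, 1 and 11. The homoeolog of Glyma01g04890 is Glyma02g02630 on chromosome 2, which is not a member and is set beside it.

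Seedlings of soybean cv. Williams 82 were grown on germination paper in a growth chamber to the first trifoliolate stage. Root RNA was sequenced from 21 libraries in 7 groups of 3: a control at 0 hr, dehydration (plants left in air) at 1, 6 and 12 hr, and salt (seedlings moved into 100 mM NaCl) at 1, 6 and 12 hr. All groups share the cultivar, the organ and the growth conditions, and no group carries a transgene or a mutation. Controls were taken only at 0 hr, so stress cannot be told apart from the hours that passed, or from the time of day.

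HD-Zip proteins are transcription factors of plants that join a homeodomain, which binds DNA, to a leucine zipper, through which they pair. Proteins of subfamily I bind a short pseudopalindromic site as dimers, and many of their genes respond to water deficit, salt or abscisic acid (ABA), the hormone that plants make when water is short. Glyma07g05800 and Glyma16g02390 belong to the clade of Arabidopsis ATHB7 and ATHB12, which are induced by ABA and water deficit and restrain growth, and of Medicago MtHB1, which responds to salt in roots and acts on lateral root emergence. Glyma01g38390 and Glyma11g06940 belong to another clade, with Arabidopsis relatives such as ATHB53 that respond to salt. Glyma01g04890 belongs to a clade that holds genes of Craterostigma and maize with a response to water deficit.

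Library totals ran from 3752853 to 28177205 counts (median 6956557). The deepest was replicate 1 of salt at 1 hr. All salt libraries of 1 and 6 hr and replicate 1 of salt at 12 hr were sequenced in lane 2, which held no control or dehydration library. For salt at 1 and 6 hr the lane is thus joined to the control groups through 1 library only. As root epidermis markers, 2 genes were taken that the study calls orthologs of Arabidopsis GLABRA2. Of these, Glyma07g02220 had 9 to 280 counts in each of the 21 libraries and Glyma13g43350 had 0 to 11 counts. The study lists both as differentially expressed under salt, so their counts may also follow the treatment. In bulk roots, fewer cells of a type and less RNA per cell cannot be told apart. All 5 members passed the filter on low counts, with 7 to 1672 counts per library. Levels are given as CPM (counts scaled by library total and TMM factor to a common depth), which compare a gene between libraries but not 2 genes of different length. Changes are log2 fold changes with their standard error from edgeR.

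Glyma01g04890 had a higher mean level under both stresses: at 1 hr it was 1.09 times the control under dehydration and 1.57 times under salt, and at 6 and 12 hr it was 2.37 to 2.92 times the control. The control libraries held 32.4, 19.9 and 21.3 CPM. Under dehydration the 3 libraries held 23.2, 19.4 and 37.1 CPM at 1 hr, 76.9, 58.2 and 39.2 CPM at 6 hr, and 62.9, 65.3 and 86.5 CPM at 12 hr. All libraries of 6 and 12 hr lay above all controls, whereas those of 1 hr overlapped them. Under salt they held 20.1, 40.3 and 55.9 CPM at 1 hr, 17.9, 88.1 and 84.8 CPM at 6 hr, and 44.2, 68.5 and 85.1 CPM at 12 hr. Replicate 1 was the lowest salt library at each time, and at 6 hr it lay below every control. The log2 fold changes against the control were 0.12 ± 0.476 (SE), 1.25 ± 0.474 and 1.54 ± 0.478 at 1, 6 and 12 hr of dehydration. They were 0.65 ± 0.471, 1.38 ± 0.476 and 1.43 ± 0.476 under salt. Salt minus dehydration was 0.53 ± 0.474 at 1 hr, 0.13 ± 0.464 at 6 hr and -0.11 ± 0.465 at 12 hr, on the log2 scale, and the libraries of both stresses overlapped at each time. From 1 to 6 hr of dehydration the level differed by 1.13 ± 0.476, without overlap, and from 6 to 12 hr by 0.30 ± 0.465, with overlap.

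Its homoeolog Glyma02g02630 followed a similar course at a smaller size. The controls held 51.7, 28.8 and 28.8 CPM. Dehydration gave 28.3, 25.2 and 35.5 CPM at 1 hr, 62.4, 61.1 and 47.0 CPM at 6 hr, and 51.3, 65.8 and 85.4 CPM at 12 hr. Salt gave 26.2, 49.8 and 30.2 CPM, then 30.6, 69.4 and 82.6 CPM, then 35.7, 75.0 and 81.1 CPM. Control replicate 1 was the highest control, and the control range overlapped every stress group. The log2 fold changes against the control were 0.64 ± 0.365 and 0.89 ± 0.368 at 6 and 12 hr of dehydration (adjusted p = 0.419 and 0.299, edgeR) and 0.75 ± 0.366 and 0.82 ± 0.366 at 6 and 12 hr of salt (adjusted p = 0.191 and 0.131, edgeR). At 1 hr they were -0.29 ± 0.370 under dehydration (adjusted p = 0.694) and -0.04 ± 0.365 under salt (adjusted p = 0.977, edgeR). None of the 6 comparisons passed the threshold, which does not show that the level stayed the same. Whether Glyma01g04890 and Glyma02g02630 differed in response was not tested, since one copy was chosen for its change. Just inside the selection, the highest log2 fold change of Glyma11g06940 was 1.01 ± 0.391, at 12 hr of salt.

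Glyma07g05800 had the highest log2 fold change of the 5 members, at 12 hr of salt. The control libraries held 22.3, 9.68 and 5.15 CPM. Under salt they held 4.96, 14.5 and 19.2 CPM at 1 hr, 5.75, 59.6 and 18.9 CPM at 6 hr, and 62.8, 55.5 and 72.1 CPM at 12 hr. The 3 libraries of 12 hr lay close together and above every control, whereas those of 6 hr ranged from below 2 of the controls to above all of them. Under dehydration they held 5.28, 3.42 and 8.70 CPM at 1 hr, 15.1, 4.81 and 3.78 CPM at 6 hr, and 13.4, 7.54 and 21.9 CPM at 12 hr, and every group overlapped the control. The log2 fold changes under salt were 0.04 ± 0.715, 1.17 ± 0.715 and 2.37 ± 0.726, the last a 5.16-fold higher level. Those under dehydration were -1.07 ± 0.763, -0.63 ± 0.726 and 0.22 ± 0.727. The level under salt exceeded that under dehydration at 12 hr by 2.15 ± 0.731 on the log2 scale, in 9 of 9 pairs of libraries. The value at 6 hr of salt rested on replicate 2: without it the log2 fold change was 0.04.

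Its homoeolog Glyma16g02390 was high and low in much the same libraries, with larger standard errors. The controls held 34.9, 13.1 and 5.04 CPM. Salt gave 5.47, 20.6 and 47.2 CPM at 1 hr, 1.44, 51.1 and 18.2 CPM at 6 hr, and 52.9, 33.0 and 36.0 CPM at 12 hr. Dehydration gave 6.22, 4.49 and 10.8 CPM, then 15.9, 4.45 and 1.43 CPM, then 9.69, 3.90 and 18.3 CPM. The lowest levels, 1.43 CPM in replicate 3 of dehydration and 1.44 CPM in replicate 1 of salt at 6 hr, rest on 11 and 7 counts. The log2 fold changes were 0.45 ± 0.936, 0.40 ± 0.944 and 1.20 ± 0.941 under salt and -1.28 ± 0.999, -1.26 ± 0.972 and -0.73 ± 0.980 under dehydration, and no group stood clear of the controls. Salt exceeded dehydration by 1.73 ± 1.00, 1.67 ± 0.983 and 1.93 ± 0.989 at 1, 6 and 12 hr, and the libraries did not overlap at 12 hr. Control replicate 1 was high for both copies: without it the fold change at 12 hr of salt was 3.10 for Glyma07g05800 and 2.16 for Glyma16g02390, on the log2 scale. Without the same control, the dehydration values of Glyma07g05800 became -0.33, 0.10 and 0.93 after 1, 6 and 12 hr, and those of Glyma16g02390 became -0.32, -0.30 and 0.21. Without replicate 1 of dehydration at 6 hr, those of 6 hr were -1.51 and -2.56, in the same order of genes. Without replicate 3 of dehydration at 12 hr, those of 12 hr were -0.21 and -1.33. With each of the 21 libraries left out in turn, the values at 1 hr of salt ran from -0.37 to 0.78 for Glyma07g05800 and from -0.46 to 1.43 for Glyma16g02390, lowest without replicate 3 of that group and highest without control replicate 1. Without replicate 2 of salt at 6 hr, the value of Glyma16g02390 at that time was -0.76. Single libraries thus decided the size, and in part the sign, of most values of this pair, while those of 12 hr of salt stayed above 0 in each such fit.

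**Figure D1:**
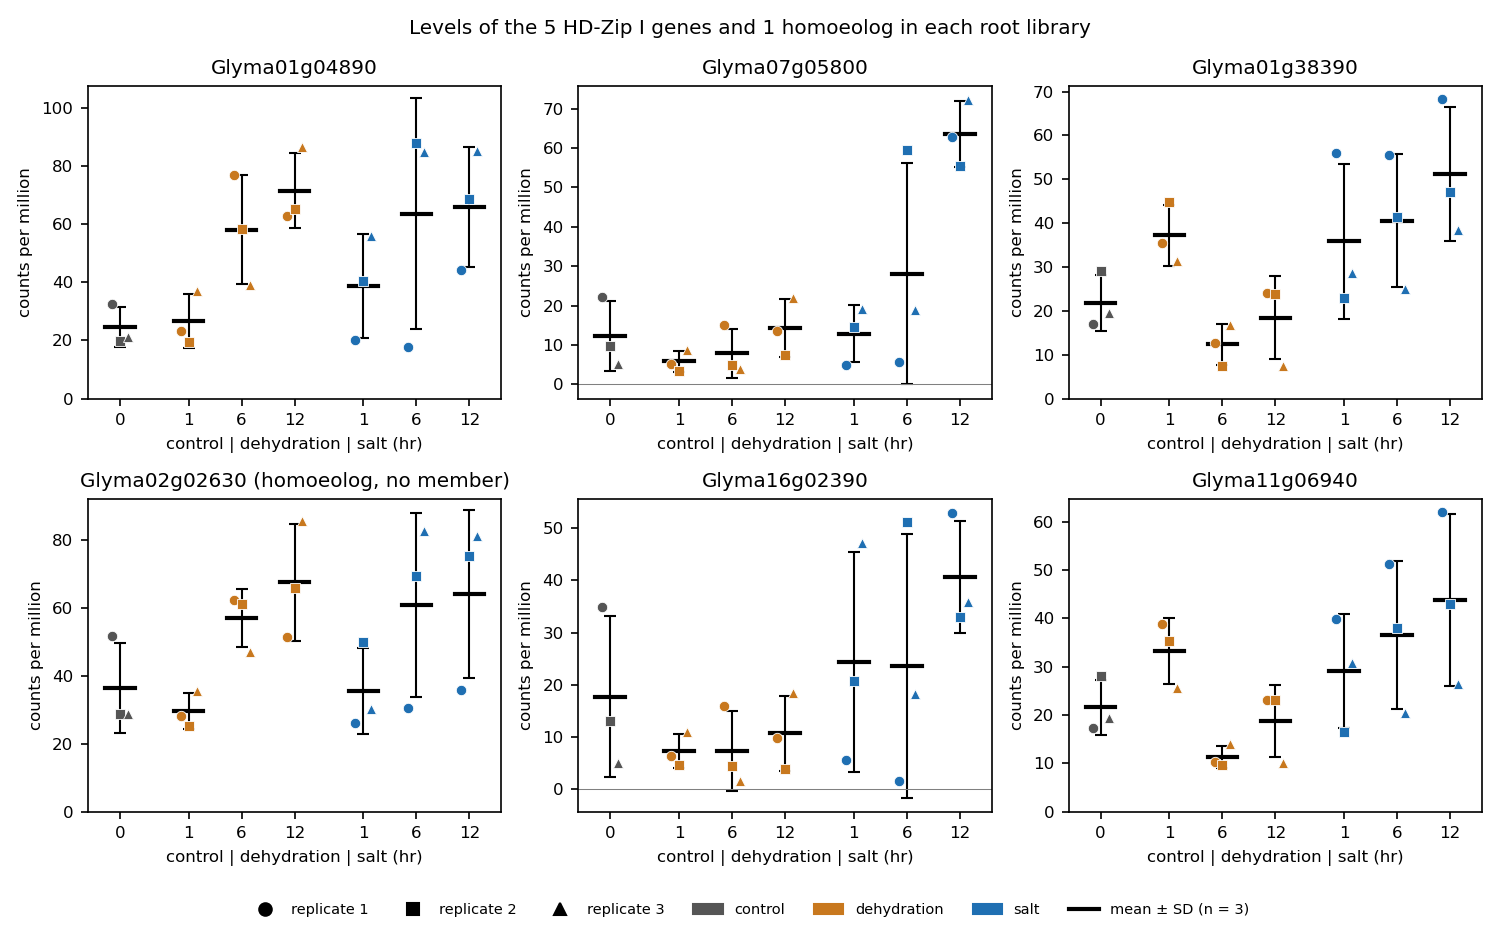
Levels in CPM (linear axis) of the 5 members and of Glyma02g02630 in each library, by group, with time in hr. Points are libraries, shaped by replicate number, and bars are the mean and SD of 3 libraries. Glyma07g05800 lay between 55.5 and 72.1 CPM at 12 hr of salt, above all its controls, while replicate 1 of salt at 6 hr lay at 17.9 CPM for Glyma01g04890 and 1.44 CPM for Glyma16g02390.

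Glyma01g38390 and Glyma11g06940 parted by stress after the first hour: at 1 hr the means of both stresses lay above that of the control, and at 6 hr the mean under salt lay above it and the mean under dehydration below. The salt libraries of 1 and 6 hr shared no lane with the control or dehydration, and their values with the lane in the model, given below, lay nearer to 0. The controls of Glyma01g38390 held 17.0, 29.0 and 19.5 CPM. Dehydration gave 35.5, 44.9 and 31.4 CPM at 1 hr, 12.8, 7.46 and 16.8 CPM at 6 hr, and 24.0, 23.9 and 7.49 CPM at 12 hr. All libraries of 1 hr lay above and all of 6 hr below the 3 controls, and those of 12 hr overlapped them. Salt gave 56.1, 22.9 and 28.6 CPM at 1 hr, 55.5, 41.4 and 25.0 CPM at 6 hr, and 68.2, 47.1 and 38.5 CPM at 12 hr. Replicate 1 was the highest salt library at each time, and only the 12 hr group stood clear of the controls. The log2 fold changes were 0.77 ± 0.423, -0.83 ± 0.430 and -0.23 ± 0.430 under dehydration and 0.73 ± 0.419, 0.88 ± 0.423 and 1.22 ± 0.423 under salt.

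Glyma11g06940 had nearly the same values. The controls held 17.3, 28.1 and 19.4 CPM. Dehydration gave 38.9, 35.2 and 25.6 CPM, then 10.4, 9.62 and 13.9 CPM, then 23.1, 23.1 and 10.1 CPM. Salt gave 39.9, 16.6 and 30.8 CPM, then 51.1, 37.9 and 20.5 CPM, then 62.0, 42.9 and 26.4 CPM. Its dehydration libraries of 6 hr also lay below all controls, whereas no salt group stood clear of them, with replicate 3 the lowest at 6 and 12 hr. The log2 fold changes were 0.62 ± 0.392, -0.94 ± 0.400 and -0.20 ± 0.398 under dehydration and 0.44 ± 0.388, 0.74 ± 0.392 and 1.01 ± 0.391 under salt. From 1 to 6 hr of dehydration the difference was -1.55 ± 0.404 in this copy and -1.59 ± 0.435 in Glyma01g38390, on the log2 scale and without overlap. Salt exceeded dehydration by 1.68 ± 0.405 at 6 hr and 1.21 ± 0.400 at 12 hr for Glyma11g06940, and by 1.71 ± 0.436 and 1.46 ± 0.433 for Glyma01g38390, in 9 of 9 pairs of libraries each. At 1 hr the differences were -0.18 ± 0.388 and -0.04 ± 0.417, with overlap. The values of this pair also depended on single libraries: without replicate 1 of salt at 1 hr the log2 fold change there was 0.25 for Glyma01g38390 and 0.15 for Glyma11g06940, without replicate 1 of salt at 6 hr it was 0.56 and 0.39, and without replicate 3 of dehydration at 12 hr it was 0.12 and 0.09.

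**Figure D2:**
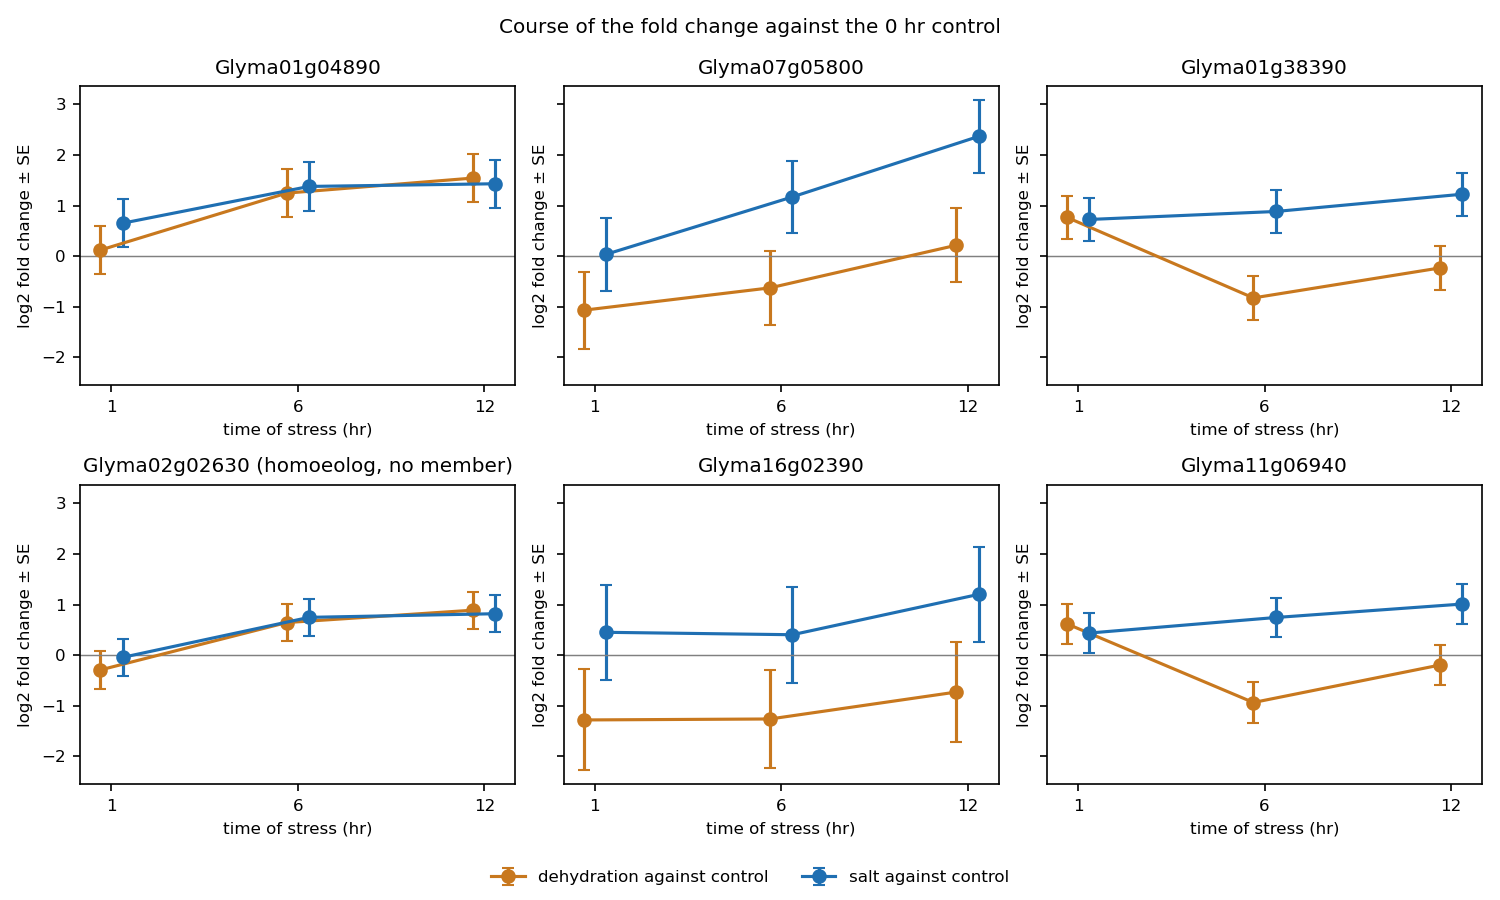
Log2 fold change against the 0 hr control (vertical axis, with SE) at 1, 6 and 12 hr (equally spaced on the horizontal axis) of dehydration and of salt for the 5 members and Glyma02g02630. For Glyma01g04890 the courses of both stresses lie close, at 1.54 and 1.43 after 12 hr, while for Glyma01g38390 they part between 1 and 6 hr, at -0.83 under dehydration and 0.88 under salt.

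With the lane as a term of the model, several values of salt at 1 and 6 hr moved, since replicate 1 of salt at 12 hr alone then links the lanes. At 1 hr of salt the log2 fold change became -0.38 ± 0.698 for Glyma11g06940, 0.12 ± 0.765 for Glyma01g38390, -0.14 ± 1.81 for Glyma16g02390, 1.44 ± 0.896 for Glyma01g04890 and 0.13 ± 1.35 for Glyma07g05800. At 6 hr of salt the log2 fold change became -0.07 ± 0.704 for Glyma11g06940, 0.28 ± 0.770 for Glyma01g38390, -0.19 ± 1.82 for Glyma16g02390, 2.16 ± 0.914 for Glyma01g04890 and 1.27 ± 1.38 for Glyma07g05800. At 12 hr of salt it was 0.70 ± 0.441, 1.04 ± 0.476, 1.00 ± 1.16, 1.64 ± 0.533 and 2.45 ± 0.847 for the same genes. Glyma02g02630 moved more than any member at 1 and 6 hr: its value went from -0.04 to 1.10 ± 0.642 at 1 hr, from 0.75 to 1.89 ± 0.654 at 6 hr and from 0.82 to 1.12 ± 0.384 at 12 hr of salt, each still short of the threshold. The 5 members' values of 12 hr thus kept their sign with the lane in the model, and the part of the lane in the values of 1 and 6 hr was not tested further.

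In order of mean level, salt at 12 hr was the highest group for 4 members, and dehydration at 12 hr, at 71.5 ± 13.0 CPM (SD, n = 3), for Glyma01g04890. The lowest group was dehydration at 6 hr for Glyma01g38390 and Glyma11g06940, with 12.3 ± 4.69 and 11.3 ± 2.31 CPM. It was dehydration at 1 hr for Glyma07g05800 and Glyma16g02390, with 5.80 ± 2.68 and 7.18 ± 3.28 CPM, and the control, with 24.5 ± 6.88 CPM, for Glyma01g04890. For each gene, every group overlapped its neighbour in this order, so only groups further apart were separate.

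Counted over the members, 3 of 5 lay above all controls at 12 hr of salt, where 18.7% of the 36691 tested genes did. Called higher (adjusted p under 0.05 and a change of at least 2-fold) were 2 of 5 at 12 hr of salt, against 7.18% of tested genes. Because the members were chosen by these contrasts, nothing is read from these counts. At the other times of salt and at each time of dehydration, 0 of 5 were called by edgeR, which does not show that their levels stayed the same. The study used DESeq and called more. It reported Glyma01g04890 as higher at 6 and 12 hr of both stresses, and Glyma07g05800 as changed at 2 times of salt. Glyma16g02390 was reported as lower at 6 hr of dehydration, and as higher at 12 hr of salt, like Glyma01g38390 and Glyma11g06940. Under dehydration 1 of 5 lay above all controls at each time, against 12.1%, 9.02% and 7.54% of tested genes at 1, 6 and 12 hr, and 2 of 5 lay below all controls at 6 hr, against 11.3%. No member stood clear above the controls at 1 or 6 hr of salt, where 9.31% and 15.2% of tested genes did. From 1 to 6 hr of dehydration, 1 of 5 members was higher without overlap and 2 were lower, against 12.3% and 12.2%. Salt libraries lay above all dehydration libraries for 2 of 5 members at 6 hr and 4 of 5 at 12 hr, against 17.9% and 18.6%.

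Among the other HD-Zip I genes, none was called higher under either stress. The rule had already taken out HD-Zip I genes that rose, so this was in part set in advance and nothing is read from it. Of 31 others listed, 29 were in the count table and 22 were tested. The share of all tested genes called higher under dehydration was 1.15% at 1 hr, 0.442% at 6 hr and 0.392% at 12 hr, and under salt it was 0.867%, 6.49% and 7.18% at the same times. The share called lower was 1.43%, 1.59% and 1.62% under dehydration and 0.730%, 3.16% and 5.18% under salt. By edgeR 1 of the 22 was called lower at 6 hr of salt and 1 at 12 hr. None was called under dehydration at 1, 6 and 12 hr or under salt at 1 hr, with 3, 4, 5 and 4 of 22 at an unadjusted p under 0.05 (edgeR). The share of all tested genes under that unadjusted cut is not given here, so nothing is read from these counts. DESeq2 called Glyma06g20230 lower at 6 hr of dehydration (-1.20, adjusted p = 0.0102) and none in the other 3 comparisons. At 12 hr of salt the median log2 fold change was -0.30 over the 22 others, -0.04 over all tested genes and 1.22 over the 5 members. At 12 hr of dehydration the medians were 0.22, 0.01 and -0.20. As the members were chosen for rising, their medians beside those of the others are a description.

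Glyma19g01300 fell at 6 hr of salt, from 241 ± 63.2 to 118 ± 8.64 CPM (SD, n = 3; log2 fold change -1.03 ± 0.189 SE, adjusted p = 0.00246, edgeR). Glyma01g05230 fell at 12 hr of salt, from 22.1 ± 8.20 to 7.06 ± 1.97 CPM (-1.67 ± 0.542, adjusted p = 0.042, edgeR). With the lane as a term neither passed, although both log2 fold changes were farther from 0: -1.23 for the first (adjusted p = 0.135) and -1.88 for the second (adjusted p = 0.0821, edgeR). In that fit the genes called over the whole table went from 3543 to 33 at 6 hr of salt and from 4535 to 2760 at 12 hr. In limma on the normalized values plus 1 the change of the first was just under 2-fold (-0.98) and that of the second was -1.56 (adjusted p = 0.0523). The first was also under 2-fold without replicate 2 of the control (-0.84) or of salt at 6 hr (-0.98). The second missed the adjusted threshold, at log2 fold changes of -1.38 and -1.67, without replicate 2 or 3 of the control (adjusted p = 0.139 and 0.0896, edgeR). It also missed it when replicate 2 of the 1 hr salt group was removed (-1.67, adjusted p = 0.0509, edgeR), and when replicate 1, 2 or 3 of the 12 hr salt group was (-1.90, -1.53 and -1.59, with adjusted p = 0.0587, 0.143 and 0.114, edgeR). The largest value among the other genes at 12 hr of salt was the 0.82 of Glyma02g02630, and at 12 hr of dehydration it was 0.96 ± 0.357 in Glyma05g30940 (171 ± 38.5 CPM in the control and 332 ± 189 CPM; adjusted p = 0.223, edgeR), which did not pass. At 6 hr of salt it was 1.17 ± 0.669 in Glyma18g49290 (adjusted p = 0.267, edgeR), above Glyma16g02390, Glyma01g38390 and Glyma11g06940 but not Glyma01g04890 and Glyma07g05800. At 1 hr of dehydration it was 1.01 ± 0.504 in Glyma17g10490 (adjusted p = 0.261, edgeR), above every member. Neither passed.

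The share of each copy in the counts of its pair does not depend on how libraries are scaled, and was the same from the raw counts as from the DESeq normalized values. It was not used to choose the members. It compares a pair between libraries, but it does not say which copy is the more expressed, because the lengths of the copies were not used. Reads that fit both copies equally were not counted, and how many reads of one copy were placed on the other was not tested.

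The share of Glyma07g05800 in its pair had a higher mean at 6 and 12 hr than at 1 hr under either stress, which was not tested. It was 38.9, 42.5 and 50.5% in the 3 controls, which rest on 416, 200 and 91 counts of the pair. Dehydration for 1 hr gave 45.9, 43.2 and 44.5%, dehydration for 6 hr 48.8, 51.9 and 72.5%, and dehydration for 12 hr 58.1, 65.9 and 54.5%. The salt libraries had 47.6, 41.2 and 29.0% after 1 hr, 80.0, 53.8 and 50.9% after 6 hr, and 54.3, 62.7 and 66.7% after 12 hr. All 6 libraries of 12 hr lay above the 3 controls and above the 6 libraries of 1 hr, a split seen after the values were known and not tested. The 72.5% rests on 40 counts (95% exact binomial interval 56.1 to 85.4%) and the 80.0% on 35 counts (63.1 to 91.6%), and the intervals cover counting error only. The 66.7% of salt at 12 hr rests on 908 counts (63.6 to 69.8%).

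Over all times the share of Glyma07g05800 was 54.0 ± 14.8% under salt (SD, n = 9), 53.9 ± 10.02% under dehydration (n = 9) and 44.0 ± 5.95% in the control (n = 3). The difference from the control was 10.02 points under salt (exact permutation test, two-sided, p = 0.282, adjusted p = 0.423 over 6 tests) and 9.93 points under dehydration (exact p = 0.127, adjusted p = 0.255). Salt and dehydration, permuted within each time, differed by 0.092 points (exact p = 0.984). The tests against the control pooled the 3 times, and the smallest p that this exact permutation can give is 0.00455. No difference passed the threshold, while the mean by time was 44.0% at 0 hr, 41.9 ± 6.71% at 1 hr, 59.7 ± 13.2% at 6 hr and 60.4 ± 5.54% at 12 hr (SD, n = 6 after 0 hr).

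The copies Glyma01g38390 and Glyma11g06940 held nearly equal shares. The share of Glyma01g38390 was 49.6, 50.8 and 50.1% in the controls, and the group means ran from 48.1 ± 4.76% (dehydration at 12 hr) to 54.9 ± 5.78% (salt at 1 hr). The highest library was replicate 3 of salt at 12 hr, with 59.3% of 545 counts, and the lowest was replicate 3 of dehydration at 12 hr, with 42.6% of 68 counts. Salt differed from the control by 4.02 points (exact permutation p = 0.109, adjusted p = 0.255), dehydration from the control by 0.58 points (exact p = 0.914) and salt from dehydration by 3.44 points (exact p = 0.124, adjusted p = 0.255). None passed, and the SD over the 9 salt and 9 dehydration libraries was 3.70 and 5.09 points.

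For Glyma01g04890 the share in the pair with Glyma02g02630 is a description, since only this copy was chosen for its change. It was 38.6, 40.9 and 42.5% in the controls. The group means under stress lay between 46.6% at 1 hr and 51.7 ± 2.92% at 12 hr of dehydration, with 51.4 ± 3.78% at 12 hr of salt. All stress libraries but 1 lay above the 3 controls, the exception being replicate 1 of salt at 6 hr with 36.9%. The highest, 64.9%, was replicate 3 of salt at 1 hr.

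**Figure D3:**
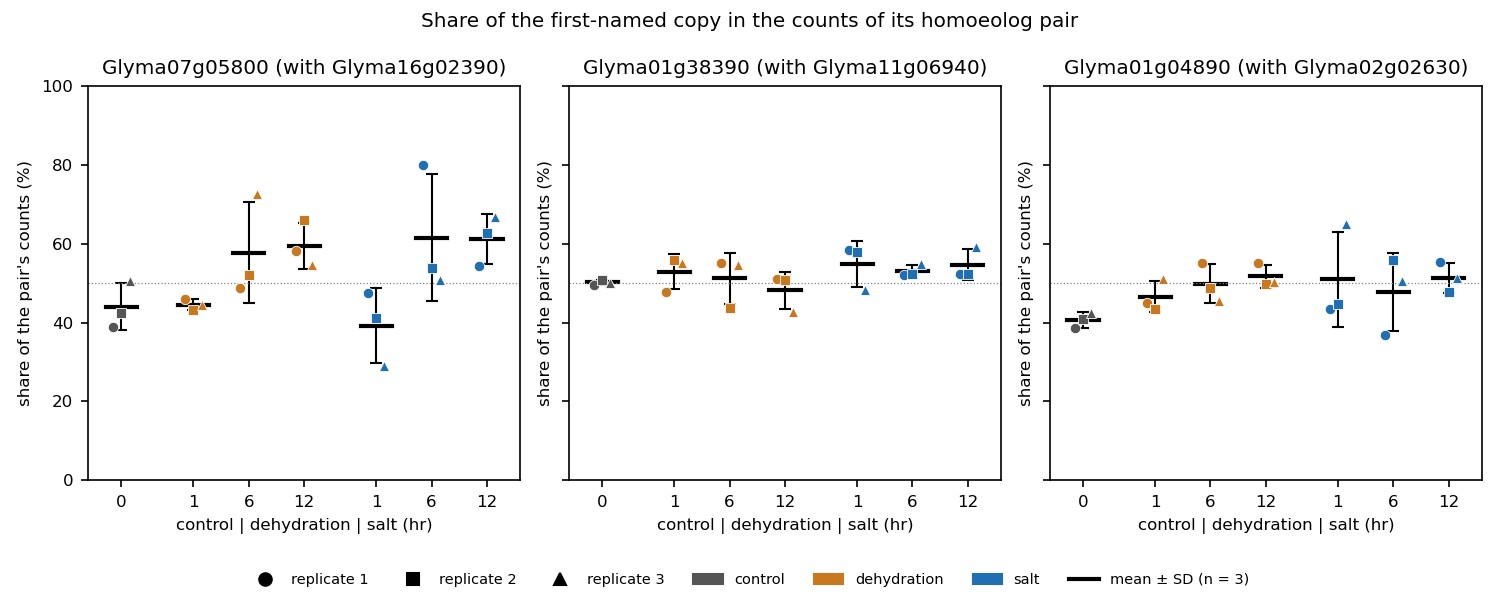
Share of the first-named copy in the counts of its pair (percent, vertical axis from 0 to 100) in each library, by group and time in hr. Points are libraries, bars are the mean and SD of 3 libraries, and the dotted line is at an equal share. All libraries of 12 hr lie between 54.3 and 66.7% for Glyma07g05800, above the controls at 38.9 to 50.5%, while the group means of Glyma01g38390 stay between 48.1 and 54.9%.

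Libraries of one group differed among themselves, and the copies of a pair differed together. For each gene the mean of its group was taken off log2(CPM + 1), and the remaining deviations of the 21 libraries were correlated, which does not use the differences between groups that chose the members. The p-values are two-sided, from all 279936 orders of replicates within groups, and were adjusted over the 15 pairs among the 5 members and Glyma02g02630. Deviations of Glyma07g05800 and Glyma16g02390 had r = 0.971 and Spearman's rho = 0.958 (exact p = 1.07e-05, adjusted p = 0.000161), and 0 of the other genes among 36690 compared lay closer to either copy. Deviations of Glyma01g38390 and Glyma11g06940 had r = 0.903 and rho = 0.904 (exact p = 2.14e-05, adjusted p = 0.000161), and 0 genes lay closer to the first and 1 to the second. Those of Glyma01g04890 and Glyma02g02630 had r = 0.821 and rho = 0.808 (exact p = 0.0011, adjusted p = 0.00236), with 203 genes closer to the first and 45 to the second.

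Without the 2 libraries farthest from the median of the first gene, r was 0.978, 0.916 and 0.709 for the 3 pairs. The first libraries of salt at 1 and 6 hr were far out, and without them r was 0.95, 0.879 and 0.702 (adjusted p = 0.00145, 0.00145 and 0.0209, exact permutation), an alternative chosen after the values were seen. Across all tested genes, r with Glyma07g05800 ran from -0.589 to 0.636 between the 5th and 95th percentiles, so values of that size are common in these libraries. For the 10 other homoeolog pairs of HD-Zip I with both copies tested, r ran from -0.168 to 0.876 with a median of 0.574.

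The members also varied together across pairs. Deviations of Glyma01g04890 had r = 0.834 with Glyma07g05800 and 0.845 with Glyma16g02390 (adjusted p = 0.000625 and 0.00185, exact permutation). They ran opposite to those of Glyma01g38390 (r = -0.655, adjusted p = 0.0047) and Glyma11g06940 (r = -0.667, adjusted p = 0.0198, exact permutation). Of 36690 genes, 0.452% and 0.33% had an r with Glyma01g04890 above those of Glyma07g05800 and Glyma16g02390. In the opposite direction, 3.24% and 2.82% lay farther from 0 than Glyma01g38390 and Glyma11g06940, so values of that size are not rare. Glyma02g02630 ran opposite to the same copies, with r = -0.746 and -0.839 (adjusted p = 0.00223 and 0.00185, exact permutation). In that direction, 368 and 58 of 36690 genes had an r with Glyma02g02630 farther from 0. With Glyma07g05800 and Glyma16g02390, Glyma02g02630 had r = 0.619 (adjusted p = 0.0371) and 0.574 (adjusted p = 0.0645, exact permutation). A higher r with Glyma02g02630 was held by 3.97% and 5.73% of genes. The correlation with Glyma07g05800 passed in 11 of 21 fits with a library removed and in 5 of 7 other alternatives. With the first library of salt at 6 hr removed, its r was 0.442 (adjusted p = 0.108, exact permutation), and without the first libraries of salt at 1 and 6 hr it was 0.361 (adjusted p = 0.198, exact permutation). Between the pair of Glyma07g05800 and the pair of Glyma01g38390, the 4 values of r lay between -0.480 and -0.414 and did not pass (adjusted p from 0.104 to 0.158, exact permutation). Those of Glyma07g05800 with Glyma01g38390 and with Glyma11g06940 each passed in 2 of 21 fits with a library removed (smallest adjusted p = 0.0484 and 0.0413, exact permutation).

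At the level of libraries, replicate 1 of salt at 6 hr lay 1.47 below its group mean for Glyma01g04890 and 0.51 above it for Glyma01g38390, on the log2 scale. Replicate 1 of salt at 12 hr lay 0.52 below for Glyma01g04890 and 0.57 above for Glyma11g06940. Deviations of the 6 genes had r between -0.284 and 0.107 with those of the library totals, where all genes ran from -0.481 to 0.447 between the 5th and 95th percentiles. What set these libraries apart was not tested.

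**Figure D4:**
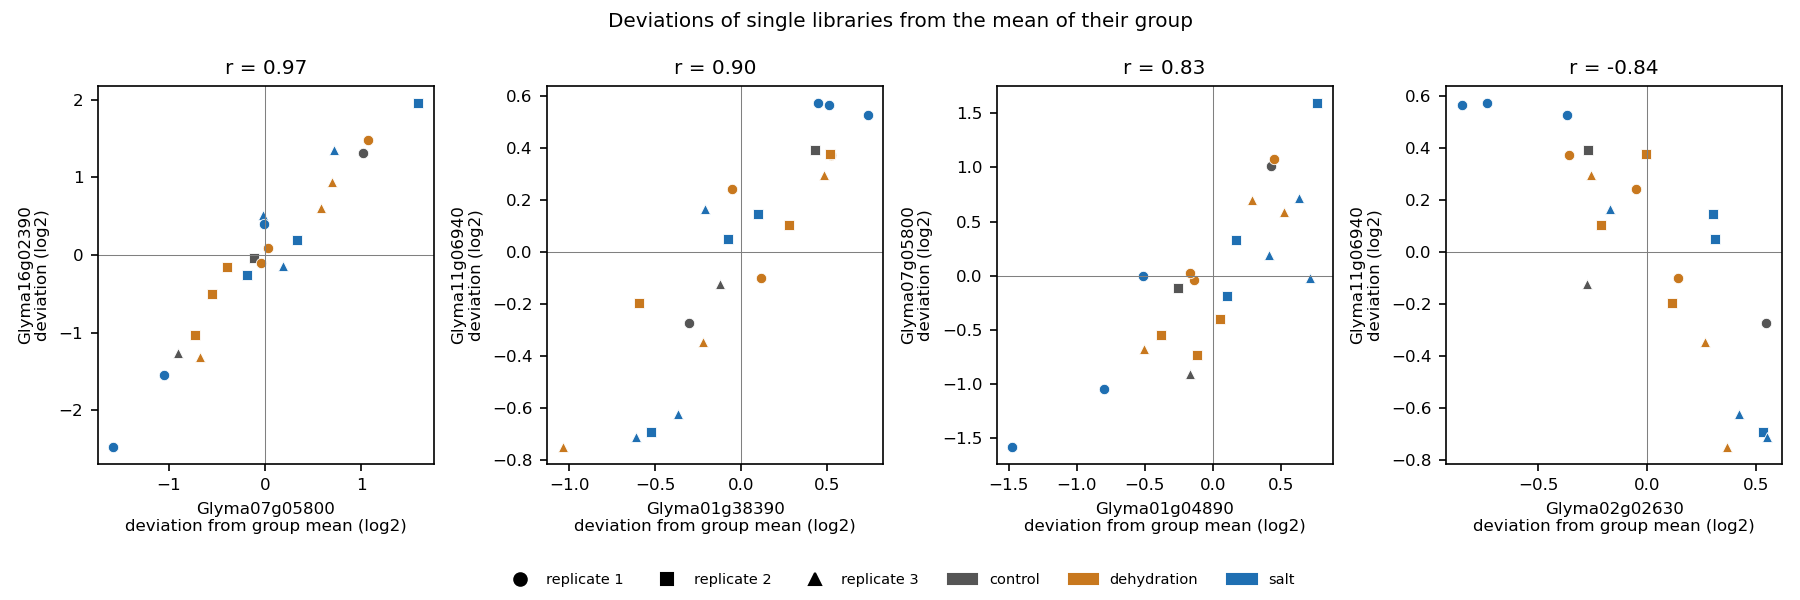
Deviation of each library from its group mean on the log2(CPM + 1) scale, for 4 pairs of genes on the horizontal and vertical axes. Points are the 21 libraries, coloured by stress and shaped by replicate number. The copies Glyma07g05800 and Glyma16g02390 vary together (r = 0.971), as do Glyma01g38390 and Glyma11g06940 (r = 0.903), while Glyma02g02630 and Glyma11g06940 run opposite (r = -0.839).

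Over all 21 libraries, group differences included, the gene most like each member was looked for among 36690 genes by Pearson's r of log2(CPM + 1). For Glyma01g38390 it was Glyma11g06940 and the reverse (r = 0.961), followed for both by Glyma02g01240 (r = 0.886 and 0.876), which had 17.4 CPM in the control, 5.73 CPM after 6 hr in air and 59.8 CPM after 6 hr in salt. For Glyma01g04890 it was Glyma05g14760 (r = 0.910; 21.6 CPM in the control, 67.5 and 65.4 CPM at 12 hr of dehydration and salt), then Glyma02g02630 (r = 0.891). For Glyma16g02390 it was Glyma07g09510 (r = 0.897), then Glyma07g05800 (r = 0.894). For Glyma07g05800 it was Glyma10g38470 (r = 0.929), then Glyma13g32090 (r = 0.919), and 4 genes were closer to it than its own homoeolog. Glyma10g38470 had 2.72 CPM in the control and 8.93 CPM at 12 hr of salt, and Glyma13g32090 had 1.10 and 4.31 CPM. These correlations describe 21 libraries that share treatments and lanes, and they carry no test.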

How the data were processed

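Single-end reads of 21 root libraries were aligned by the authors with GSNAP to the soybean genome assembly of the Glyma1.0 gene calls. The deposited raw counts are uniquely mapped reads per gene model, and the second deposited table is a normalized signal, each count divided by a DESeq (1.7.10, per the submitters' processing notes) size factor of its library. The counting program and its use of strand are not given in the sources used here, so overlapping and antisense genes are uncertain.

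Counts were filtered with filterByExpr by group (36691 of 62537 gene models left), TMM-normalized and, in edgeR 4.0.16 (R 4.3.3), given 1 robust glmQLFit model with a term for each of the 7 groups, whose contrasts were tested by glmQLFTest. A gene was called at a Benjamini-Hochberg adjusted p under 0.05 over all tested genes and a change of at least 2-fold. The biological coefficient of variation was 0.306. The 3 libraries of a group are biological replicates per the study's methods. Copy shares were compared with exact permutation tests and deviations with exact permutation within groups, both tested on simulated data. The alternatives were DESeq2 1.42.0 (size factors, Wald test), no filter, lane as a term, replicate block, limma 3.58.1 on the normalized values plus 1 or plus 0.1, and each library left out; for shares, the log2 ratio (plus 0.5), summed counts and lanes 3 and 4 only; for deviations, DESeq normalized values, a pseudocount of 0.1, Spearman's rho and the lane removed.

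The members and lists were chosen with earlier results of these data known. Genes were named by rule: the members, Glyma02g02630, other HD-Zip I genes called against the control or with the largest change at 12 hr, and the 2 genes most alike to each member. Glyma06g20230, Glyma18g49290, Glyma17g10490 and the marker genes were named outside it. Of the 36 listed genes, 2 were absent from the count table, and only the 5 members and 22 others passed the filter and were tested. Lists of ABA pathway genes and of shoot markers were void, because the reference table of a later assembly matched none of these gene identifiers, and no sequence or coordinate is printed for that reason.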

Additional observations from a re-analysis of the deposited data

Results flagged for a closer look

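Glyma01g38390 at 6 hr moved in opposite directions from the control mean: every salt library lay above it, by 18.8 CPM on average, and every dehydration library below it, by -9.50 CPM on average. This difference was not tested, because the gene was chosen by its levels. The salt libraries of 6 hr were sequenced in a lane without control or dehydration libraries. With the lane as a term, the log2 fold change against the control at 6 hr was 0.28 ± 0.77 (SE) under salt and -0.75 ± 0.45 under dehydration. The salt side of the difference thus cannot be told apart from the lane. Glyma01g05230, an HD-Zip I gene outside the 5, was lower under salt than under dehydration at 12 hr (log2 difference -1.75 ± 0.548 SE, adjusted p = 0.0388, edgeR), with 7.06 ± 1.97 CPM against 23.3 ± 7.41 CPM (SD, n = 3). The alternatives were not examined for this contrast. Against the control, the call of this gene at 12 hr of salt was lost in several of them. No library stood apart in the copy shares of the 9 salt or the 9 dehydration libraries by Dixon's criterion.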

How the results depend on the processing

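The 3 homoeolog pairs kept their covariation past the threshold under every alternative run. The 6 share tests stayed short of it in each alternative that gave a p-value, which the summed counts did not. With lanes 3 and 4 only, salt kept just replicates 2 and 3 of 12 hr, too few for a comparison with the control to pass. There the share of Glyma07g05800 differed between salt and control by 20.7 points, against 10.02 in the main test. The replicate numbers showed no pairing across all groups: libraries with the same number had a mean correlation of deviations of -0.048, -0.054 and -0.056. Single pairs of libraries ran from -0.477 to 0.446, and a pairing within one stress was not tested. With the replicate block the covariation was 0.971 for Glyma07g05800 and Glyma16g02390, the difference in share of Glyma07g05800 between salt and control was 10.02 points (exact permutation p = 0.328), and 1 other HD-Zip I gene was called at 6 hr and 1 at 12 hr of salt. Counts of the other HD-Zip I genes called against the control moved from 1 to 0 at 6 hr of salt with the lane as a term and in limma with either pseudocount, and from 1 to 0 at 12 hr of salt with those and with no filter. The lane term also took the calls over all tested genes from 3543 to 33 at 6 hr of salt. Of the 15 covariations, that of Glyma02g02630 and Glyma07g05800 changed its side of the threshold most often, in 12 of 28 fits. At 6 hr of dehydration the count moved from 0 to 1 with DESeq2's Wald test. With 1 library left out the counts ran from 0 to 1 for the early times of dehydration (1 and 6 hr) and the later ones of salt (6 and 12 hr), and the cause was not tested. The values of Glyma02g02630 stayed short of the threshold in each fit (adjusted p from 0.0545 to 1.0). Depth limited the shares most where a pair had few counts, as in replicate 1 of salt at 6 hr, where 35 counts allow 63.1 to 91.6% for Glyma07g05800 (95% exact binomial interval).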
